A study of Drosophila melanogaster with 4 samples.

Results

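Oxidative phosphorylation is carried out in mitochondria by respiratory complexes I to IV and the ATP synthase, complex V. Complexes I and II feed electrons from NADH and succinate to ubiquinone, complex III passes them to cytochrome c, and complex IV reduces oxygen. Complexes I, III and IV pump protons, and complex V uses the proton gradient to make ATP. Most subunits are encoded in the nucleus, and a few are encoded in the mitochondrial genome. In the ovary, mitochondria are amplified in the germline and pass from nurse cells to the oocyte. The genes described here are those of Drosophila melanogaster whose symbol starts with ND- (complex I), Sdh (II), UQCR- (III), COX (IV) or ATPsyn (V). There were 91 such symbols among 17026 features in all. 88 of them had rows in the deposited table, and the mitochondrially encoded COX1, COX2 and COX3 were not analysed here. The 91 comprised 66 subunit genes, 24 duplicate genes, whose symbol adds L, or L and a digit, to the name of a subunit, and Sdhaf3, an assembly factor of complex II.

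The series measured RNA in adult ovaries to ask what the nucleoporin Nup358 does in transposon silencing and piRNA production. The 2 Control libraries came from mat>Luc flies, and the 2 Nup358GLKD libraries from ovaries in which Nup358 was knocked down in the germline. RNA of 10 to 15 ovary pairs went into a library, and neither the driver behind mat nor the knockdown construct is spelled out in the labels. The libraries are called biological repeats, with no statement that they came from separate flies, so p-values measure the spread between these samples, which may be technical. A germline driver does not act in somatic cells. Somatic follicle cells and muscle sheath are part of each sample, and in such bulk RNA a change in the number of cells of a type cannot be told apart from a change in RNA per cell.

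Totals were 58876800 to 60792292 expected counts per library, and values are given as CPM, expected counts scaled to the same library size, with TMM factors. Nup358 itself had 662.2 and 624.3 CPM in Control and 282.7 and 151.3 CPM in Nup358GLKD, a log2 change of −1.57 (SE 0.34) with an adjusted p of 0.0524 by the quasi-likelihood F-test of edgeR, above the threshold of 0.05. DESeq2 gave 0.000171. The germline markers vas, nanos, osk, bcd, otu, orb and bam together held 3718 and 3757 CPM in Control and 5340 and 5420 CPM in the knockdown, and orb alone passed (716 and 702 against 2131 and 1685 CPM, edgeR adjusted p = 0.0292). Much of the sum's difference was that of orb, and bam had 63.8 and 69.9 against 12.8 and 44.8 CPM. The summed level of 9 muscle sheath markers was 325 and 261 CPM in Control but 1424 and 307 CPM in Nup358GLKD replicates 1 and 2, so replicate 1 stood apart. Of all 10191 tested features, 9.59% were called higher and 9.03% lower at an adjusted p under 0.05.

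RNA of complexes IV and V was modestly more abundant in both knockdown libraries, complex I genes had changes in both directions, and complex II held SdhB, the subunit gene with the lowest change. Few genes passed the test. Of 68 tested members 4 were called higher (5.88%, beside 9.59% of all features) and 1 lower (1.47%, beside 9.03%), so the share of members called was below the background in both directions. Of the 4, the duplicates ND-51L1 and ATPsynepsilonL passed the filter on low counts only through the knockdown libraries, so they had to differ and their calls support nothing. Among the 62 tested subunit genes, the calls were ND-MLRQ and COX5A, both higher, and edgeR called 0 lower. At an unadjusted p under 0.05, edgeR had 24 of the 62 higher and 2 lower, beside 23.2% and 22% of all features. DESeq2 called 12 higher and 2 lower, beside 18.8% and 19.3%. Without Control replicate 1 or without Control replicate 2, edgeR called 0 of all features, so every edgeR call reported here was lost without either one. The log2 changes of these 62 ran from −0.72 to 0.68 with a median of 0.24. Over all tested features the median was 0.01, and over the 5708 features with a mean of at least 20 CPM it was −0.14. The 2 knockdown values exceeded the 2 Control values for 38 of the 62 (61.3%, beside 37.9% of all features and 29.8% of those of at least 20 CPM). They were under the Control values for 10 (16.1%, beside 39.8% and 48.7%).

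**Figure D1:**
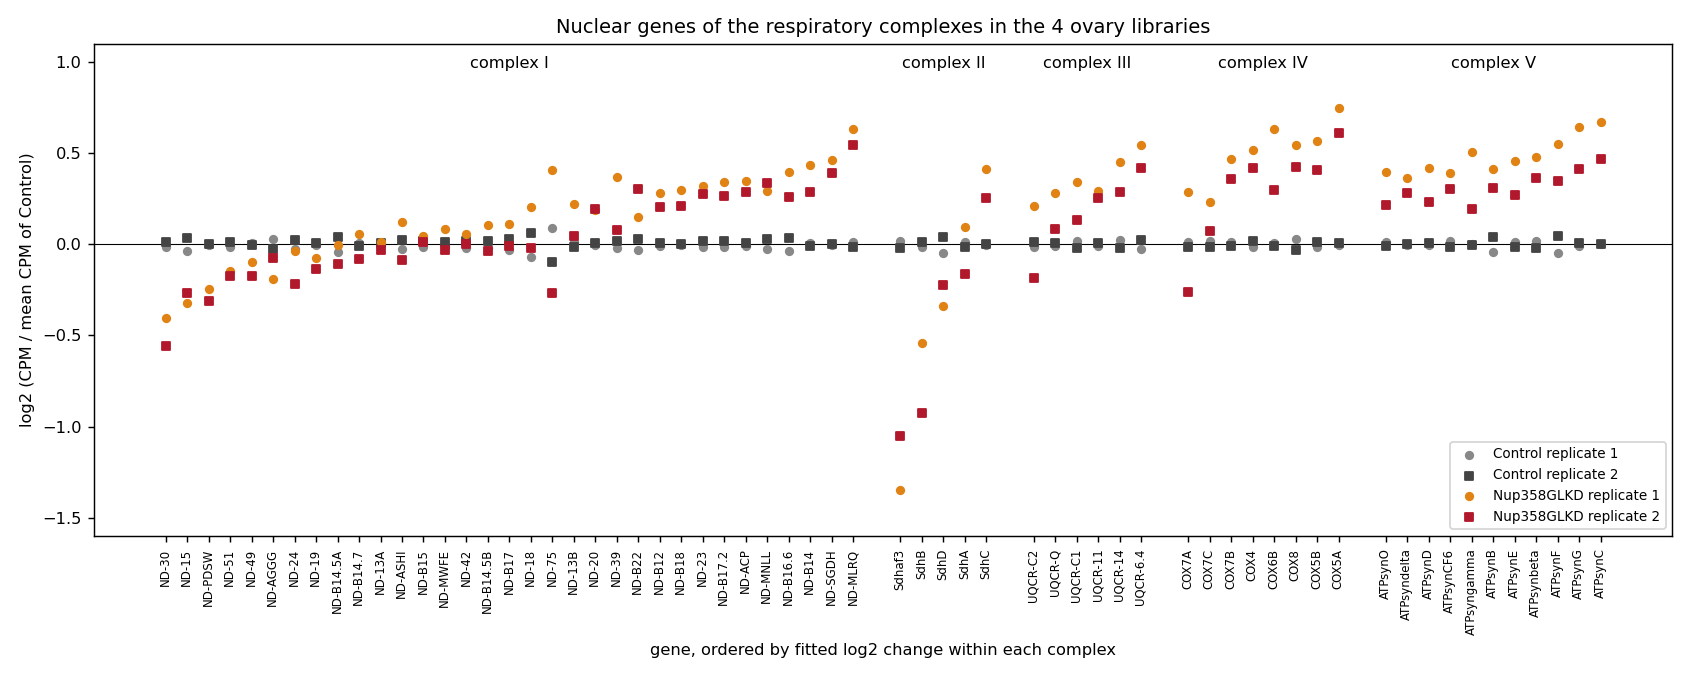
The vertical axis is the log2 ratio of CPM to the Control mean for each of the 62 tested subunit genes and Sdhaf3 (horizontal axis, by complex), with 1 point per library and no error bars. The Control points lie near 0, while both Nup358GLKD points lie above them for all 11 complex V genes and for 7 of 8 complex IV genes. The share over all tested features is 37.9%.

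The knockdown libraries differed less for these genes than for features in general, though more than the Control libraries did. Between the knockdown libraries the median absolute log2 difference was 0.13 over the 62 subunit genes and 0.19 over those of complex V. It was 0.40 over all tested features and 0.30 over features of at least 20 CPM. Between the Control libraries it was 0.03 for the subunit genes and 0.09 for all features. Replicate 1 of the knockdown held the higher value for 56 of the 62, beside 5018 of all 10191 tested features and 2399 of the 5708 of at least 20 CPM.

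Complex V, the ATP synthase, showed the same direction throughout. The rule takes 11 of its nuclear subunit genes. In each of them the knockdown values exceeded the Control values (100%, beside 37.9% of all features). EdgeR called 0 of them, beside 9.59% called higher over all features. It had 9 higher at an unadjusted p under 0.05, beside 23.2%, and DESeq2 called 4 higher, beside 18.8%. Their log2 changes lay between 0.31 and 0.58 with a median of 0.36, which is 1.29-fold. Summed over the 11 genes the level was 5237 and 5208 CPM in Control and 7639 and 6766 CPM in the knockdown. The change was positive for 11 of 11 in each of the 13 alternative fits, which varied the scaling, the filter, the model, the summing of rows and the libraries used.

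ATPsynC encodes the subunit of the rotating membrane ring. It had 1933 and 1932 CPM in Control and 3084 and 2678 CPM in Nup358GLKD (means 1933 ± 0.619 and 2881 ± 287.5 CPM, SD, n = 2 each). This was 1.49-fold higher (log2 change 0.58, SE 0.15) and did not pass in edgeR (adjusted p = 0.0635), though it did in DESeq2 (adjusted p = 0.0045). ATPsynbeta, the catalytic subunit of the F1 head and a gene of chromosome 4, had 1582 and 1543 CPM in Control and 2176 and 2009 CPM in the knockdown (1.34-fold, edgeR adjusted p = 0.0846). ATPsynG, a small membrane subunit, had 130 and 131 CPM against 204 and 174 CPM (1.45-fold, edgeR adjusted p = 0.0572). By position in the enzyme, the 4 membrane subunits ATPsynC, ATPsynE, ATPsynF and ATPsynG had a median log2 change of 0.49. The 4 stalk subunits (ATPsynB, ATPsynD, ATPsynCF6 and ATPsynO) had 0.34 and the F1 subunits ATPsynbeta, ATPsyngamma and ATPsyndelta 0.36. ATPsynO had the lowest change of the 11, with 215 and 212 CPM in Control and 282 and 248 CPM in the knockdown.

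Complex IV, cytochrome c oxidase, had 8 tested nuclear subunit genes, with a median log2 change of 0.47 (1.39-fold). EdgeR called 1 of them higher (12.5%, beside 9.59% of all features). It had 6 higher at an unadjusted p under 0.05, beside 23.2%, and DESeq2 called 5 higher, beside 18.8%. The change was positive for 8 of 8. It was positive for 7 of 8 under total-count scaling, with no filter, with unsummed rows, and without Control replicate 2 or Nup358GLKD replicate 1. COX5A, a subunit that binds on the matrix side in mammals, had 171 and 173 CPM in Control and 289 and 262 CPM in Nup358GLKD. It rose 1.6-fold (log2 change 0.68, SE 0.11, edgeR adjusted p = 0.0356). In the current annotation an exon of COX5A overlaps an exon of glo, a gene that itself rose 2.28-fold, with 150 and 141.5 CPM in Control and 355 and 309 CPM in the knockdown (edgeR adjusted p = 0.0279). The strand setting is not given in the sources used here, so reads of the shared stretch cannot be told apart.

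COX4, which carries the regulatory nucleotide site in mammals, had 202 and 207 CPM in Control and 293 and 273 CPM in the knockdown (1.38-fold, edgeR adjusted p = 0.0516). COX8 and COX5B differed by similar amounts, 1.4-fold and 1.41-fold, with an edgeR adjusted p of 0.0546 and 0.0547. COX7B went from a mean of 99.6 to 132.8 CPM (edgeR adjusted p = 0.0621) and COX6B, at the outer face of the complex, from 195 and 192.5 to 301 and 239 CPM (adjusted p = 0.0909). COX7C was closer to Control at 96.6 and 94.4 against 112 and 100.4 CPM. COX7A stood apart, with 421 and 412 CPM in Control and 508 and 347 CPM in the knockdown, so that its groups overlapped (log2 change 0.04, SE 0.22, edgeR adjusted p = 0.896).

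Complex III, the cytochrome bc1 complex, was intermediate. All 6 of its tested genes had a positive log2 change, with a median of 0.26. It was 5 of 6 under total-count scaling, with no filter, with unsummed rows, and without Control replicate 1 or Nup358GLKD replicate 1. EdgeR called 0, beside 9.59% called higher over all features. It had 2 higher at an unadjusted p under 0.05, beside 23.2%, and DESeq2 called 1 higher, beside 18.8%. The small subunit gene UQCR-6.4 had 44.0 and 45.5 CPM in Control and 65.3 and 59.9 CPM in Nup358GLKD (1.4-fold, edgeR adjusted p = 0.0598), and UQCR-14, also a small subunit, 84.8 and 82.2 against 114 and 102 CPM (adjusted p = 0.085). The core proteins differed less. UQCR-C1 had 412.6 and 402.1 CPM in Control and 515.9 and 446.8 CPM in the knockdown (log2 change 0.24, SE 0.13). UQCR-C2 had 282 and 288 CPM in Control and 330.1 and 250.3 CPM in the knockdown, overlapping groups with a log2 change of 0.03 (SE 0.17).

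**Figure D2:**
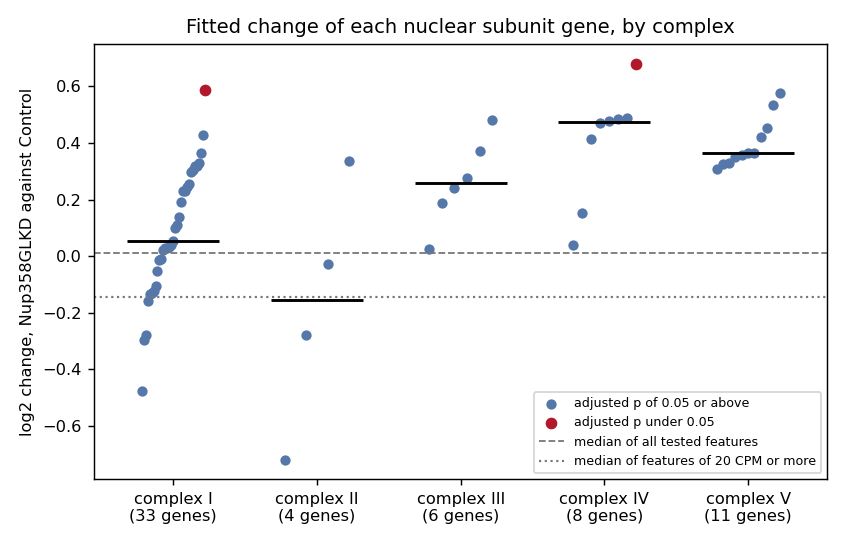
Each point is the fitted log2 change (vertical axis) of 1 tested subunit gene, grouped by complex (horizontal axis), with the median of each complex as a bar and red for an adjusted p under 0.05. The medians are 0.05, −0.15, 0.26, 0.47 and 0.36 for complexes I to V, and the dashed and dotted lines mark the medians of all tested features and of those of at least 20 CPM.

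Complex II, succinate dehydrogenase, went the other way in part. SdhB, the iron-sulphur subunit, had 174 and 177 CPM in Control and 121 and 92.7 CPM in Nup358GLKD. It was 1.65-fold lower (log2 change −0.72, SE 0.17) and missed the threshold in edgeR (adjusted p = 0.0564), but passed in DESeq2 (adjusted p = 0.00948). SdhA, the flavoprotein that oxidises succinate, had overlapping groups at 215 and 211 against 228 and 191 CPM (log2 change −0.03, SE 0.13). The membrane anchors differed in sign: SdhC had 43.1 and 43.2 CPM in Control and 57.5 and 51.6 CPM in the knockdown, while SdhD had 54.9 and 58.3 against 44.7 and 48.5 CPM. Neither passed (edgeR adjusted p = 0.112 and 0.147).

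Sdhaf3, which in yeast and flies helps to mature the iron-sulphur subunit of complex II, was the only member that edgeR called lower. It had 15.6 and 15.2 CPM in Control and 6.06 and 7.45 CPM in the knockdown, and fell 2.28-fold (log2 change −1.19, SE 0.19, edgeR adjusted p = 0.0356).

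Complex I, NADH dehydrogenase, had 33 tested subunit genes with changes in both directions. The median log2 change was 0.05, and the 2 knockdown values were above the Control values for 14 genes (42.4%, beside 37.9% of all features), below them for 8 (24.2%, beside 39.8%) and overlapped with them for 11. The number with a positive change depended on the processing: 22 of 33 here, 16 with total-count scaling and 15 with unsummed rows. It was 27 with upper-quartile scaling and 29 when only features of at least 5 CPM were kept. Only ND-MLRQ passed in edgeR. It had 99.8 and 97.9 CPM in Control and 153 and 144 CPM in Nup358GLKD, and rose 1.5-fold (log2 change 0.59, SE 0.10, edgeR adjusted p = 0.0387). Its human counterpart, NDUFA4, was first assigned to complex I and later found to be part of complex IV. Beside its log2 change of 0.59, the median was 0.47 for complex IV and 0.05 for the other 32 complex I genes. The 2 ranges overlapped, from 0.04 to 0.68 for complex IV and from −0.48 to 0.43 for those 32. To which complex ND-MLRQ belongs was not tested. The call was lost with no filter on low counts (adjusted p = 0.0541) and with unsummed transcript rows (adjusted p = 0.144).

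The 7 nuclear core subunits, which include the carriers of the flavin and the iron-sulphur clusters, had a median of −0.12. ND-30 was lowest, with 145 and 148 CPM in Control and 111 and 99.9 CPM in the knockdown (1.39-fold lower, log2 change −0.48, SE 0.11). It missed the threshold in edgeR (adjusted p = 0.0551) and passed in DESeq2 (adjusted p = 0.0256). ND-51, which binds NADH and flavin, had 169 and 172 CPM against 154 and 151 CPM, and ND-49, a quinone-site subunit on chromosome 4, 192 and 190 against 179 and 169 CPM. Both were slightly lower in the 2 knockdown libraries and did not pass (edgeR adjusted p = 0.252 and 0.334). ND-23, an iron-sulphur subunit, lay on the other side, at 66.2 and 67.7 against 83.7 and 81.0 CPM. ND-75, the largest core subunit, had 234 and 205.5 CPM in Control and 292 and 182 CPM in the knockdown, so that its groups overlapped.

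Accessory subunits of complex I also differed among themselves. The 17 of the membrane arm had log2 changes from −0.29 to 0.43 with a median of 0.03. ND-SGDH had 99.7 and 100.1 CPM in Control and 138 and 131 CPM in the knockdown (1.34-fold, edgeR adjusted p = 0.0562), whereas ND-PDSW had 91.9 and 92.1 against 77.5 and 74.3 CPM (1.21-fold lower, adjusted p = 0.116). ND-15 was also lower, at 64.7 and 67.8 against 53.0 and 55.0 CPM. The 8 tested accessory subunits of the matrix arm had a median of 0.18, and ND-ACP, the mitochondrial acyl carrier protein, had 154 and 156 CPM in Control and 198 and 189 CPM in the knockdown (adjusted p = 0.085). ND-B8 was the only nuclear subunit gene that was not tested, with 3, 3, 3 and 0 counts in Control replicates 1 and 2 and Nup358GLKD replicates 1 and 2.

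The differences between complexes were present in both knockdown libraries. The median log2 ratio to Control of complex V less that of complex I was 0.34 and 0.31 in the knockdown libraries and 0.01 and −0.01 in Control. For complex IV less complex I these values were 0.41 and 0.39 against 0.02 and −0.02, and for complex V less complex II 0.58 and 0.50 against 0.01 and −0.01. For complex V less complex IV they were −0.07 and −0.08 against −0.01 and 0.01. With 2 libraries per group a two-sided exact permutation test cannot go below p = 0.333, which all 10 pairs of complexes had, so its p says nothing about whether complexes differ.

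Nuclear subunits that carry other names were followed as a list of 9 genes. It held RFeSP, Cyt-c1 and ox of complex III, cype and levy of complex IV, blw and sun of complex V, and the genes of cytochrome c, Cyt-c-p and Cyt-c-d. Of these 1 rose (11.1%, beside 9.59% of all features) and edgeR called 0 lower (also 0 at an unadjusted p under 0.05 and 0 by DESeq2). In 8 of them the knockdown values exceeded those of Control (88.9%, beside 37.9% of all features, median log2 change 0.47). Cyt-c-p, the widely expressed cytochrome c, had 152 and 149 CPM in Control and 317 and 235 CPM in Nup358GLKD and rose 1.84-fold (log2 change 0.88, edgeR adjusted p = 0.0486). The ATP synthase alpha subunit gene blw had 1654 and 1515 against 2479 and 1976 CPM (adjusted p = 0.109), and sun, the epsilon subunit gene, 77.5 and 79.1 against 117 and 104 CPM (adjusted p = 0.0564). The Rieske protein gene RFeSP had 119 and 123 CPM in Control and 174 and 147 CPM in the knockdown. Cyt-c-d, the cytochrome c known from the male germline, had 0.431 and 0.39 CPM in Control and 0.396 and 0.332 CPM in the knockdown. The call of Cyt-c-p was lost with no filter (adjusted p = 0.0578).

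Genes that build the complexes had calls in both directions. Of 14 matched assembly factors 1 rose, 3 fell and 10 did not pass, with a median log2 change of −0.44. The knockdown values were under those of Control for 11 (78.6%, beside 39.8% of all features and 48.7% of those of at least 20 CPM). Called shares over all features were 9.59% higher and 9.03% lower. This list includes Sdhaf3. Cox11, which delivers copper to complex IV, had 31.6 and 31.9 CPM in Control and 14 and 15.3 CPM in the knockdown (log2 change −1.11, edgeR adjusted p = 0.029). CIA30, a complex I assembly factor named after its values were seen, went from 23.98 and 25.17 to 15.1 and 14.8 CPM (adjusted p = 0.041). Nubpl, an iron-sulphur carrier for complex I, rose from 69.8 and 67.5 to 150.5 and 122.2 CPM (log2 change 0.99, adjusted p = 0.034).

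Of 10 genes for transcription and replication of mitochondrial DNA, 3 fell and edgeR called 0 higher (0 at an unadjusted p under 0.05 and 0 by DESeq2). The knockdown values were under those of Control for 9 of them (90%, beside 39.8% and 48.7%, median −0.40). The 3 that fell stand beside 9.03% called lower over all features. The mitochondrial helicase gene mtDNA-helicase had 38.3 and 37.7 CPM in Control and 21.8 and 21.4 CPM in the knockdown (edgeR adjusted p = 0.033). The transcription factor gene mtTFB2 had 24.6 and 22.9 against 11.2 and 12.7 CPM (adjusted p = 0.0343), and PolG1, the mitochondrial DNA polymerase, 68.8 and 61.1 against 36.5 and 26.0 CPM (adjusted p = 0.0475). TFAM, the packaging factor of mitochondrial DNA, did not pass (168 and 178 against 164 and 141 CPM).

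**Figure D3:**
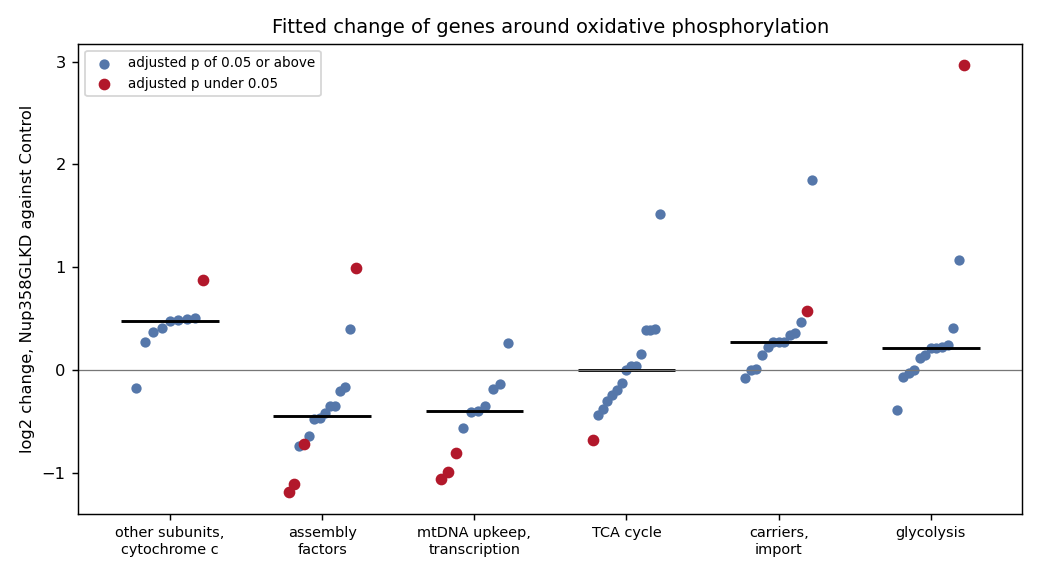
Points are fitted log2 changes (vertical axis) of the tested genes of 6 lists (horizontal axis), bars are list medians, and red marks an adjusted p under 0.05. The medians are 0.47 for other subunits and cytochrome c, −0.44 for assembly factors, −0.40 for mitochondrial DNA upkeep and transcription, 0.00 for the TCA cycle, 0.27 for carriers and import and 0.21 for glycolysis.

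Neighbouring pathways were followed in the same way. Over all features edgeR called 9.59% higher and 9.03% lower. DESeq2 called 18.8% and 19.3%, and 23.2% and 22% had an unadjusted p under 0.05 in edgeR. The 1 edgeR call in each of the TCA cycle (6.67%), glycolysis (7.69%) and carrier lists (7.69%) was below the share of its direction. Of 15 TCA cycle and related genes 1 fell and edgeR called 0 higher. The one that fell was Idh, an NADP-dependent isocitrate dehydrogenase, from 798 and 809 to 472 and 528 CPM (edgeR adjusted p = 0.0397). The citrate synthase gene kdn was the 1 gene higher at an unadjusted p under 0.05 and in DESeq2, with 195.5 and 174 CPM in Control and 695 and 362 CPM in the knockdown (edgeR adjusted p = 0.0579). On the lower side, edgeR had 4 of the 15 at an unadjusted p under 0.05, namely Idh, Idh3b, Idh3g and muc. DESeq2 called 2 lower, Idh and Idh3b. Of 13 genes of glycolysis 1 rose and edgeR called 0 lower (1 at an unadjusted p under 0.05 and 1 by DESeq2). The gene that rose was Ldh, lactate dehydrogenase, which went from 0.192 and 0.472 to 1.92 and 3.26 CPM (adjusted p = 0.0444). Of 13 tested carrier and import genes 1 rose and 0 were called lower by edgeR, by DESeq2 or at an unadjusted p under 0.05. In 9 of the 13 the knockdown values exceeded those of Control (69.2%, beside 37.9% of all features), and the median log2 change was 0.27. The gene that rose was the import channel gene Tim17b, from 150.1 and 155 to 229 and 224 CPM (adjusted p = 0.0384). Among 6 genes known to regulate mitochondrial or growth programmes, 3 rose (50%, beside 9.59% of all features). Of the 6, 0 were called lower by edgeR, by DESeq2 or at an unadjusted p under 0.05. The median log2 change of the 6 was 0.43. Those that rose were ewg, the fly counterpart of NRF-1 (96.3 and 91.9 against 165 and 192 CPM), Myc (234 and 231.5 against 426 and 370 CPM) and crc, which encodes ATF4 (360 and 355 against 519 and 530 CPM), with edgeR adjusted p of 0.0317, 0.0356 and 0.0414. srl, the PGC-1 homologue, had 522 and 545 against 649 and 641 CPM and did not pass (adjusted p = 0.129).

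Duplicate genes were at or near 0. Many fly respiratory genes have such copies that are used mainly in the testis. Of the 24 duplicates 8 had no count in any library, which allows up to 0.0501 CPM per library at a floor of 3 counts. Another 2 had 1 to 3 counts in all, and 14 had more. The filter kept 5 of them, at no more than 1.17 CPM in any library. ND-51L1, COX7CL and ATPsynepsilonL passed it only through their knockdown counts, and COX4L and COX7AL2 only through Control, so neither their number in each direction nor a test of them says anything further.

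ATPsynepsilonL, the copy of the epsilon subunit gene sun, had 3 and 5 counts in Control and 65 and 33 counts in Nup358GLKD. The ratio of depth-scaled counts was 13.1, with an exact 95% counting interval of 6.41 to 31.3, and no test is given because of the filter. The level reached was 1.17 and 0.548 CPM. ND-51L1, a copy of ND-51, had 2 and 3 against 14 and 14 counts, a ratio of 6.004 (interval 2.29 to 19.9). These intervals cover counting error only and not the spread between libraries. As both genes passed the filter through their knockdown counts, the intervals do not support a difference. COX7CL had 4 and 1 against 11 and 17 counts.

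In the other direction COX4L had 16 and 12 counts in Control and 8 and 2 counts in the knockdown, and COX7AL2 20 and 15 against 10 and 1 counts. The 7 testis markers together held 0.0958 and 0.13 CPM in Control and 0.198 and 0.216 CPM in the knockdown, and Mst98Ca was at 0 in every library. Few counts made up these sums, and 0 of the 7 passed the filter on low counts. The marker with the most counts, can, had 3 and 4 counts in Control and 4 and 7 in the knockdown. The part of testis RNA in the values of the duplicates was not tested.

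**Figure D4:**
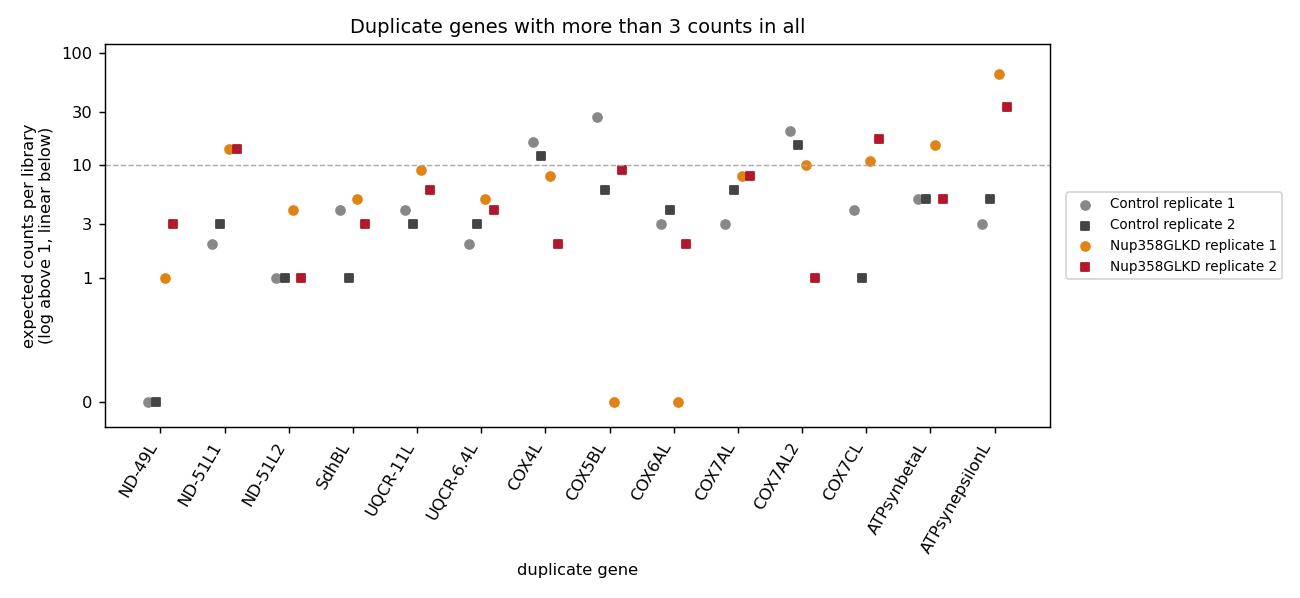
Expected counts per library (vertical axis, logarithmic above 1 count) are plotted for the 14 duplicate genes with more than 3 counts in all (horizontal axis), 1 point per library, with a dashed line at 10 counts. ATPsynepsilonL, with 65 and 33 counts, stands highest in the knockdown libraries, and COX5BL had 27, 6, 0 and 9 counts in Control replicates 1 and 2 and Nup358GLKD replicates 1 and 2.

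Other measures moved with the libraries. The summed level of muscle sheath markers was high in Nup358GLKD replicate 1 as given above, and all were detected in every library. EdgeR called 0 of the 9, also 0 at an unadjusted p under 0.05, while DESeq2 called 5 higher. Without that library the median log2 change over all tested members was 0.31 for complex V and 0.33 for complex IV, and in replicate 2 alone the subunit genes lay a median of 0.30 and 0.38 above the Control mean. The part of muscle tissue in these values was not tested. The 8 follicle cell markers together held 11855 and 10724 CPM in Control and 14148 and 13483 CPM in the knockdown. Within this sum the knockdown libraries differed in both directions. Vm26Aa had 3268 and 3018 CPM in Control and 1284 and 3711 CPM in the knockdown, while Yp1 had 3426 and 2991 against 5846 and 4378 CPM. Of the 8 markers Fas3 rose, with 46.5 and 46.7 against 157 and 146 CPM (edgeR adjusted p = 0.0273), and Yp3 fell, with 1284 and 1257 against 338 and 542 CPM (adjusted p = 0.0401). DESeq2 called 5 of the 8 higher and 1 lower, beside 18.8% and 19.3% of all features. Both knockdown values were above Control for 5 (62.5%, beside 37.9%) and below for 1 (12.5%, beside 39.8%). The part of follicle cells in the respiratory genes was not tested. Of the 5 fat body markers edgeR called 2 higher (40%, beside 9.59% of all features) and 0 lower. Lsp2 had 17 and 45 counts in Control and 901 and 1080 in the knockdown (edgeR adjusted p = 0.0279). Fbp1 had 7 and 17 against 58 and 108 counts. It passed the filter on low counts only through the knockdown libraries, so its call supports nothing. Both knockdown values were above Control for 4 of the 5, and NLaz overlapped (24.71 and 24.65 against 16.03 and 46.38 CPM). Together the 5 markers held 39.8 and 35.3 CPM in Control and 54.8 and 103 CPM in the knockdown.

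Transcripts of these genes are short, with a median canonical length of 805 bases over the 62 subunit genes and 1951 bases over tested features. Across the 62 genes the log2 change and the length had a Spearman's rho of −0.28, and across 9851 features it was 0.09. Since genes do not count as replicates, these values are a description. Among features of at least 20 CPM and 600 to 1000 bases the median log2 change was −0.06 (492 features), and among the 33 subunit genes of that length it was 0.26. Up to 600 bases these medians were 0.07 (99 features) and 0.37 (11 subunit genes). From 1000 to 2000 bases they were −0.27 and 0.11 (14 subunit genes), and from 2000 to 4000 bases −0.21 and 0.22 (4 subunit genes). The part of length in the changes was not tested. Annotated exons of another gene overlapped those of 32 of the 62 subunit genes.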

How the data were processed

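Per the labels' protocols, total RNA of adult ovaries was enriched for poly(A) RNA and made into TruSeq libraries. Bowtie2, RSEM and build dm3 appear in the submitters' processing notes. Their versions, the annotation release and the strand setting are not stated in the sources used here. The deposited values are RSEM expected counts per transcript, unscaled for depth or length. Here 34035 of 34437 RefSeq rows (98.8%) were summed to 16356 genes by name with an NCBI RefSeq gene table of the current assembly, and the sums were rounded. Transposon and cluster rows stayed in the fit.

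Features were tested in edgeR 4.0.16 with glmQLFTest (quasi-likelihood; R 4.3.3, robust, TMM factors, filterByExpr with a minimum count of 10), with Benjamini-Hochberg adjustment over 10191 features and a threshold of 0.05. Unless another tool is named, adjusted p-values are from it. The code was tested on simulated data. DESeq2 1.42.0 and limma-voom (limma 3.58.1) were alternatives, beside other scalings and filters, unsummed rows, a replicate block and each library left out. Ratios of counts have exact 95% Clopper-Pearson intervals, given the total, where a group held 12 counts or fewer. These and the floor of 3 counts cover counting error only. Lengths and exon overlaps come from the Ensembl BDGP6 annotation, which is not the build used for counting.

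The members and gene lists were chosen with earlier results of these data known. The rule for named genes took Nup358, the members called, in each complex the genes of smallest p and of highest and lowest change, a set list of core subunits, the duplicates with their parents, and up to 3 passing genes per list. ATPsynC, COX6B, COX7B, COX8, SdhD, ND-23, ND-PDSW, ND-15, ND-SGDH, ND-ACP, ND-B8, RFeSP, sun, Cyt-c-d, CIA30, kdn, TFAM and srl were added after their values were seen. The list of assembly factors held 24 names, of which 14 matched. Counts of the Control libraries differed beyond counting noise (chi-square divided by its degrees of freedom, 16), so they were not treated as one library deposited again. This does not tell separate ovaries from separate library preparations.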

Additional observations from a re-analysis of the deposited data

How the results depend on the processing

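Without Control replicate 1 or 2, edgeR called 0 features (0 of 10778 and 0 of 10779), while 902 higher and 816 lower, and 828 higher and 723 lower, had an unadjusted p under 0.05. Among members these were 1 higher and 0 lower, and 1 higher and 1 lower. Without Nup358GLKD replicate 1, 36 members were called higher and 14 lower, beside 29.3% and 33% of all features, and without replicate 2, 42 and 8, beside 35.7% and 39.7%. A group left with 1 library was assumed to vary like the other. Over these 4 fits members called ranged from 0 to 42 higher and from 0 to 14 lower. The count of 4 higher became 13 in DESeq2, 8 at a mean of at least 5 CPM, 2 with no filter, 0 with unsummed rows (where 1 of 20393 rows passed), 10 with upper-quartile scaling and 2 over subunits only, an alternative added after seeing the data. The count of 1 lower became 3 in DESeq2, 3 with total-count scaling, 0 with unsummed rows and 0 over subunits only.

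Replicate numbers share only a label (correlation of same-numbered deviations 0.11). With the replicate block, 3 members were higher and 2 lower, and Nup358 had a log2 change of −1.64 (adjusted p = 0.0289). Nup358 also passed in DESeq2 (−1.55), limma-voom (−1.64) and total-count scaling (−1.67), and ranged from −2.09 to −1.21 with a library left out.

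Medians over all tested members were 0.08, −0.28, 0.26, 0.47 and 0.36 for complexes I to V. With features under a mean of 5 CPM removed they became 0.20, −0.13, 0.41, 0.62 and 0.51. They were 0.20, −0.16, 0.38, 0.59 and 0.49 with upper-quartile scaling, and −0.02, −0.37, 0.16, 0.37 and 0.27 with total-count scaling. Upper-quartile scaling moved the median of all features by 0.12. Unsummed rows gave −0.02, −0.35 and 0.36 for complexes I, II and IV. Complex II was −0.21 with no filter and −0.15 over subunits only. With a library left out, ranges were −0.00 to 0.11 (I), −0.37 to −0.22 (II), 0.19 to 0.29 (III), 0.33 to 0.46 (IV) and 0.31 to 0.45 (V).

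Some log2 changes near 0 changed sign. UQCR-C2 was −0.03 with no filter, −0.07 with total-count scaling, −0.04 with unsummed rows, and ranged from −0.19 to 0.18 with a library left out. COX7A was −0.02, −0.06 and −0.03 in the first 3 of these, and −0.00 and −0.26 without Control replicate 2 and Nup358GLKD replicate 1, respectively. ND-75 was −0.04 with unsummed rows and −0.01 and −0.27 without the same libraries. At a mean of at least 5 CPM, SdhA was 0.12, ND-24 0.03, ND-49 0.01 and ND-B14.5A 0.10. With upper-quartile scaling, SdhA was 0.10, ND-24 0.00 and ND-B14.5A 0.07, and SdhA was 0.07 without Nup358GLKD replicate 2. The cause of these shifts was not tested. Depth limits the values of the duplicates, 10 of which had 3 counts or fewer in all.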
